A study of Homo sapiens with 4 samples.

Results

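The 9 genes described here handle iron inside the cell: the ferritin chains FTL and FTH1, the ferritin receptor NCOA4, the uptake proteins TFRC and SLC11A2, the exporter SLC40A1, the haem-degrading enzyme HMOX1, and the iron sensors IREB2 and ACO1. They were taken by symbol from a deposited table of 58735 genes, and all 9 were in it. They were chosen by their role in iron handling with the FPKM of these libraries, and the differences between growth forms, already seen, so those differences are a description, with no test. RNA-seq was run on 1 library of each of 4 conditions of human colorectal cancer lines with a wild-type (WT) genotype. Adherent HCT116 and adherent LOVO cells grew without drug in RPMI-1640 with fetal bovine serum. HCT116 spheroids and LOVO spheroids grew in low-attachment dishes in serum-free DMEM/F12 with B27, N2, bFGF and EGF, and with oxaliplatin, a platinum drug. The labels put a dose of 1 in mg/ml and name no drug. The unit of the oxaliplatin dose in the published text is μg/ml. Growth form, medium and drug therefore differed together and cannot be told apart.

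Depth ran from 15483569 to 20429147 reads on genes, recovered from the FPKM, a count of fragments scaled to gene length in kilobases and to 1000000 fragments in a library. The libraries labelled LOVO went against their label on part of the epithelial markers. All 7 of these markers with a mean FPKM no lower than 1 were lower than in HCT116 in both growth forms. CDH1, the epithelial cadherin, had an FPKM of 0.117 in adherent and 0.00805 in spheroid cells, against 31.1 in both HCT116 libraries. EPCAM, an epithelial surface protein, had 0.930 and 1.499 against 85.6 and 79.3 in HCT116, and CDX2, an intestinal transcription factor, had 0 reads in both against an FPKM of 3.84 and 3.12. LUM and DCN, proteoglycans of fibroblasts, had an FPKM of 31.4 and 10.4 in adherent cells labelled LOVO and 50.4 and 9.97 in the spheroids, against at most 0.0198 in HCT116. The keratins KRT8 and KRT18 were present, with an FPKM of 189 and 122 in adherent cells labelled LOVO and of 81.6 and 98.8 in the spheroids. The collagen gene COL1A1 had 5.51 and 15.5 in HCT116 against 9.89 and 6.10, so that it was higher in HCT116 among the spheroids. COL1A2, of the same list of fibroblast markers, was at most 0.00534 in every library. COL3A1 and PDGFRB had 0.811 and 5.13 and 1.57 and 1.17 in the libraries labelled LOVO, against at most 0.358 and 0.175 in HCT116. Over the whole lists, 8 epithelial markers had a summed FPKM of 1754 and 1288 in HCT116 against 327 and 187 in the libraries labelled LOVO, and 6 fibroblast markers had 5.601 and 16.1 against 54.0 and 72.8. The part of these differences in the iron results was not tested. In HCT116 the villin gene VIL1 had an FPKM of 0.0425 and 0.0946, and the keratin gene KRT20 had 0.930 in adherent cells and 7.45 in spheroids. In the libraries labelled LOVO, VIL1 had 0 in both and KRT20 had 0.0302 and 0.0538. The keratin gene KRT19 had 808 and 543 in HCT116 against 14.9 and 4.85. Markers of macrophages had a summed FPKM of 0.326 to 2.01 over 5 genes, those of erythroid cells 2.42 to 9.73 over 7 genes, mostly EPOR, and those of hepatocytes 0.149 to 13.0 over 6 genes, mostly SERPINA1 except in adherent cells labelled LOVO, where it had 0.0683.

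Cells take up iron bound to transferrin through the transferrin receptor TFRC, store it in shells built of the ferritin chains, and release it through ferroportin, the product of SLC40A1. The sensor proteins IRP1, encoded by ACO1, and IRP2, encoded by IREB2, bind iron-responsive elements, short hairpins in mRNA, when iron is scarce. Bound at the 5′ end of an mRNA they block its translation, and bound in the 3′ untranslated region (UTR) of TFRC mRNA they protect it from decay. Ferritin is thus controlled by these proteins mainly at translation, which mRNA levels do not show, while TFRC is controlled through its mRNA.

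The elements themselves are shown for FTL, FTH1 and SLC40A1, which had one at the 5′ end, and for TFRC and SLC11A2, with elements at the 3′ end. GENCODE 29 protein-coding transcripts (GRCh38) were searched on the sense strand for an unpaired C, 5 stem bases, the loop CAGTGN and 5 more bases able to pair with the stem bases, G-T pairs allowed. In each sequence the unpaired C and the 6-base loop are in capitals.
FTL, 5′ UTR, chr19:48965335-48965363, plus strand: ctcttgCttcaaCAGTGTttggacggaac
FTH1, 5′ UTR, chr11:61967574-61967602, minus strand: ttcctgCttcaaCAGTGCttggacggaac
SLC40A1, 5′ UTR, chr2:189580661-189580689, minus strand: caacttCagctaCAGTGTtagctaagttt
TFRC, 3′ UTR, chr3:196050979-196051007, minus strand: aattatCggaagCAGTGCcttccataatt
TFRC, 3′ UTR, chr3:196050575-196050603, minus strand: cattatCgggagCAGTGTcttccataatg
TFRC, 3′ UTR, chr3:196050510-196050538, minus strand: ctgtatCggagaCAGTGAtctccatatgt
TFRC, 3′ UTR, chr3:196050463-196050491, minus strand: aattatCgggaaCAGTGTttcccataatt
SLC11A2, 3′ UTR, chr12:50988269-50988297, minus strand: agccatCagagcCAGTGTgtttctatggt

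The FTL and FTH1 windows were identical at 26 of 29 bases. All 5 stem pairs could form in a UTR of FTL, FTH1, SLC40A1 and TFRC, the last with 4 such sites. That is 4 of the 9 genes against 0.854% of 19669 protein-coding genes. The 9 genes were chosen for their role in iron handling, so the gap between these shares follows from that choice and is not a test. The SLC11A2 site paired at 4 of 5 positions, a looser match that 11.2% of protein-coding genes held somewhere in a transcript. IREB2 and ACO1 also had a match of that looser kind in their 3′ UTR, not printed here. NCOA4 and HMOX1 had no match of either kind in any protein-coding transcript.

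The plot of FPKM by library shows how far apart the levels of the 9 genes lay. The ferritin chains were the most abundant, TFRC and NCOA4 came next, and SLC40A1 was near the limit of detection.

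**Figure D1:**
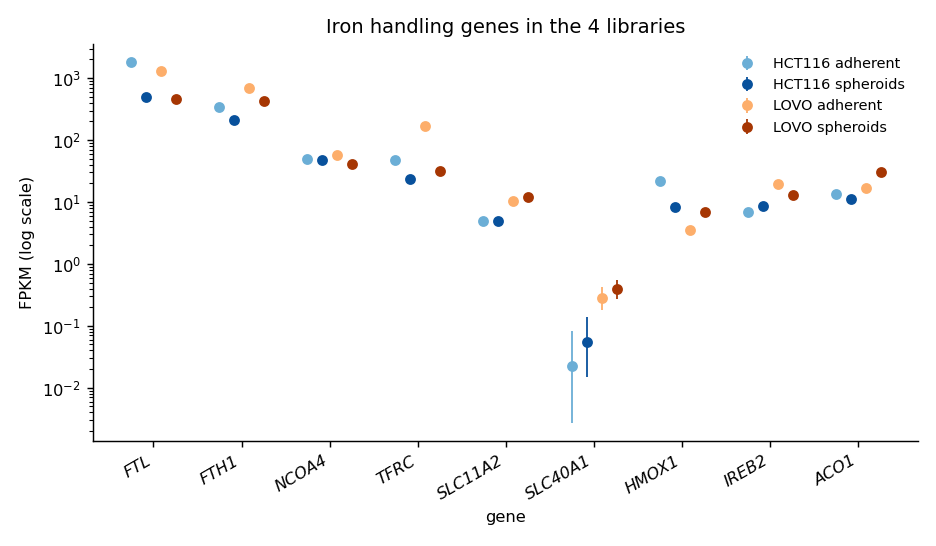
FPKM (log scale) of the 9 iron handling genes in the 4 libraries, 1 point per library, with bars for the exact 95% Poisson counting interval. FTL lies at 504 and 468 in the spheroids and at 1801 and 1282 in the adherent cells, whereas SLC40A1 lies under 1 in every library.

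The iron storage mRNAs were lower in spheroids than in adherent cells of both lines. FTL (ENSG00000087086, chr19:48965301-48966878, plus strand) encodes the ferritin light chain, which favours mineral formation in the ferritin core. Positions are those of GRCh38. Its FPKM was 1801 in HCT116 grown adherent, 504 as HCT116 spheroids, 1282 in adherent cells labelled LOVO and 468 in their spheroids. Both spheroid libraries lay below both adherent libraries. The adherent level was 3.57 times that of the spheroids in HCT116 and 2.74 times in LOVO. As log2(FPKM + 1), where differences of genes with low values come out too small, FTL differed between spheroids and adherent cells by -1.84 in HCT116 and by -1.45 in LOVO. Without the pseudocount, the log2 ratio had exact 95% counting intervals from -1.87 to -1.80 and from -1.49 to -1.42. Counting intervals here cover counting error between 2 libraries only, since no condition had a second library. Of the 14429 genes compared, those whose FPKM averaged 1 or more across libraries, 0.728% had a lower difference than FTL in HCT116 and 2.71% in LOVO. In bulk RNA, fewer cells that express a gene and less of its RNA per cell cannot be told apart.

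FTH1 (ENSG00000167996, chr11:61959718-61967660, minus strand) encodes the ferritin heavy chain, whose ferroxidase site oxidises iron on entry. Its FPKM was 342 in HCT116 grown adherent, 208 as HCT116 spheroids, 684 in adherent cells labelled LOVO and 425 in their spheroids. Within each line the spheroids were lower, but LOVO spheroids lay above adherent HCT116 cells. The differences of log2(FPKM + 1) were -0.71 in HCT116 and -0.69 in LOVO, smaller in size than those of FTL in each line. They stood at percentiles 6.95 and 17.2 of the genes compared.

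The balance of the chains thus differed between libraries. The FPKM of FTH1 divided by that of FTL was 0.190 in HCT116 grown adherent, 0.413 as HCT116 spheroids, 0.534 in adherent cells labelled LOVO and 0.908 in their spheroids. The FPKM divides FTH1 reads by 2030 bases, the length of all exons of its 12 transcripts. With the longest coding transcript of 1229 bases instead, a length chosen after seeing the data, the ratios were 0.314, 0.682, 0.882 and 1.5002, in the same order of libraries. Reads on FTH1 and FTL together made up 0.227% and 0.228% of the reads on genes in the adherent cells of HCT116 and LOVO, against 0.0939% and 0.134% in the spheroids.

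Ferritin genes have many processed pseudogenes, to which reads can be misassigned. The table held 25 rows named as FTH1 pseudogenes, 17 of them with reads, and their summed reads came to 1.25% to 1.44% of the FTH1 reads. The highest, FTH1P2, had an FPKM between 4.91 and 13.7. The 16 FTL pseudogene rows came to 0.109% to 0.363% of the FTL reads. With these reads added, the differences of both chains moved by less than their counting error. Exons of BEST1, on the opposite strand, cover 1267 of the exonic bases of FTH1. BEST1 had 15 to 78 reads, at most 0.552% of the FTH1 reads. Whether the counting used strand is not given, so reads of this pair may have been shared.

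NCOA4 (ENSG00000266412, chr10:46005088-46030714, minus strand) is the receptor that carries ferritin to lysosomes, where its iron is released. Its FPKM was 50.04 in HCT116 grown adherent, 47.6 as HCT116 spheroids, 56.6 in adherent cells labelled LOVO and 41.1 in their spheroids, the smallest ratio of highest to lowest level among the 9 genes. The difference between spheroids and adherent cells was -0.07 in HCT116 and -0.45 in LOVO. The FPKM of FTH1 was 6.83 times that of NCOA4 in HCT116 grown adherent and 4.37 times as HCT116 spheroids, and 12.1 and 10.3 times in LOVO.

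TFRC (ENSG00000072274, chr3:196027183-196082189, minus strand), the receptor for iron-loaded transferrin, had the largest difference of the 9 genes between spheroids and adherent cells, in LOVO. Its FPKM was 169 in adherent cells labelled LOVO and 32.0 in their spheroids, from 23834 and 5071 reads. In HCT116 it was 47.4 in adherent cells and 23.4 in spheroids. Both spheroid libraries lay below both adherent libraries, as for FTL. The adherent level was 5.27 times that of the spheroids in LOVO and 2.03 times in HCT116. The differences of log2(FPKM + 1) were -2.36 in LOVO and -0.99 in HCT116, and 0.561% and 3.44% of the genes compared had a lower one. The HCT116 value lay just inside a log2 difference of 1 in size, with a counting interval of the log2 ratio from -1.08 to -0.96. Adherent cells labelled LOVO stood apart, at 3.56 times the level of adherent HCT116 cells, whereas the spheroids of LOVO were at 1.37 times the level of those of HCT116.

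The summed FPKM of the ferritin chains was 45.2 times that of TFRC in HCT116 grown adherent and 30.5 times as HCT116 spheroids. It was 11.7 times in adherent cells labelled LOVO and 27.9 times in their spheroids. The ratio of storage to uptake mRNA was thus lower in spheroids than in adherent cells in HCT116 and higher in LOVO, although both kinds of mRNA were lower in the spheroids of each line.

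SLC11A2 (ENSG00000110911, chr12:50979401-51028566, minus strand), or DMT1, carries ferrous iron across membranes, in endosomes after release from transferrin and at the surface of intestinal cells. Its FPKM was 4.85 in HCT116 grown adherent, 4.86 as HCT116 spheroids, 10.5 in adherent cells labelled LOVO and 11.97 in their spheroids. The levels differed by line, at 2.16 times the HCT116 level in adherent cells and 2.46 times in spheroids. Between spheroids and adherent cells the difference was 0.18 in LOVO, and in HCT116 it was 0.00 with a counting interval of the log2 ratio from -0.13 to 0.14 and turned negative, to -0.02, under another scaling of the libraries. At this depth no difference of SLC11A2 could be detected in HCT116.

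SLC40A1 (ENSG00000138449, chr2:189560579-189583758, minus strand) encodes ferroportin, the one known exporter of iron from mammalian cells. It had 2 reads in HCT116 grown adherent, 4 as HCT116 spheroids, 22 in adherent cells labelled LOVO and 34 in their spheroids, or an FPKM of 0.0227, 0.0550, 0.283 and 0.390. It was the 1 gene of the 9 under the mean FPKM of 1 and stayed out of the counts below. Between growth forms, the counting interval of its log2 ratio was -1.52 to 4.75 for HCT116 and -0.35 to 1.31 for LOVO, so that neither line had a detectable difference at this depth. The libraries labelled LOVO had more: the ratio to HCT116 was 12.5 in adherent cells, with a counting interval of its log2 from 1.62 to 6.78, and 7.10 in spheroids, with one from 1.34 to 4.78.

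HMOX1 (ENSG00000100292, chr22:35380361-35394214, plus strand), haem oxygenase, frees iron from haem and is induced by haem and by oxidative stress. Its FPKM was 21.7 in HCT116 grown adherent and 8.41 as HCT116 spheroids, but 3.52 in adherent cells labelled LOVO and 6.80 in their spheroids. The level in spheroids was thus lower than in adherent cells in HCT116 and higher in LOVO, and the spheroid libraries lay between the adherent ones. The differences were -1.27 in HCT116, with a counting interval of the log2 ratio from -1.55 to -1.19, and 0.79 in LOVO, with one from 0.67 to 1.23. The reads behind them were 1065, 340, 152 and 329 in the same order of libraries. Adherent HCT116 cells had 6.16 times the HMOX1 level of adherent cells labelled LOVO, against 1.24 times in spheroids.

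The sensor genes also went in opposite directions in the lines, and opposite to each other. ACO1 (ENSG00000122729, chr9:32384603-32454769, plus strand) encodes a protein that is a cytosolic aconitase with an iron-sulfur cluster and the RNA-binding IRP1 without it. Its FPKM was 13.4 in HCT116 grown adherent, 11.1 as HCT116 spheroids, 16.9 in adherent cells labelled LOVO and 30.6 in their spheroids, the last standing apart from the other libraries. The differences of ACO1 were -0.25 in HCT116 and 0.82 in LOVO. IREB2 (ENSG00000136381, chr15:78437431-78501456, plus strand) encodes IRP2, which is degraded when iron is plentiful. Its FPKM was 6.87 in HCT116 grown adherent, 8.45 as HCT116 spheroids, 19.4 in adherent cells labelled LOVO and 13.0 in their spheroids. The differences of IREB2 were 0.26 in HCT116 and -0.55 in LOVO. The counting intervals of all 4 log2 ratios excluded 0. The FPKM of ACO1 was 1.96 times that of IREB2 in HCT116 grown adherent and 1.32 times as HCT116 spheroids, against 0.873 and 2.36 times in LOVO.

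**Figure D2:**
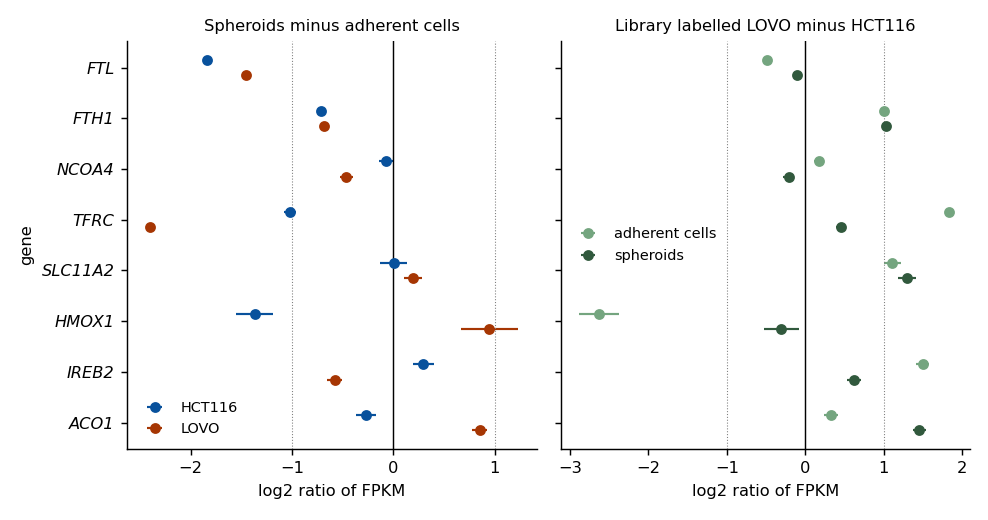
Log2 ratio of FPKM with its exact 95% counting interval for the 8 genes with a mean FPKM no lower than 1, between spheroids and adherent cells of each line (left) and between the library labelled LOVO and HCT116 in each growth form (right). FTL, FTH1, NCOA4 and TFRC lie left of 0 in both lines, while HMOX1, IREB2 and ACO1 lie on opposite sides. Dotted lines mark a log2 ratio of 1 in either direction.

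Of the 8 genes compared, 2 were past a log2 difference of 1 in HCT116 spheroids, FTL and HMOX1, both lower, where 5.52% of all genes compared were past it, 3.33% below -1 and 2.19% above 1. In LOVO spheroids FTL and TFRC were past it, both lower, where the background was 16.4%, with 7.85% below -1 and 8.57% above 1. With values rescaled to sum to the same total in every library (TPM), 4 were past it in LOVO, with HMOX1 and ACO1 above it. At the log2 difference of 2 used in the study's methods, 0 of the 8 were past it in HCT116, against 0.707% of genes, and 1, TFRC, in LOVO, against 2.75%. The median difference of the 8 genes was -0.48 in HCT116 and -0.50 in LOVO, beside -0.03 and -0.06 over all genes compared. All 8 had a mean FPKM no lower than 5, and over genes at that level the median was -0.12 in HCT116 and -0.21 in LOVO.

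Both lines had a lower value in spheroids for 4 of the 8 genes, FTL, FTH1, NCOA4 and TFRC, where 35.1% of all genes did. For 3 of the 8, HMOX1, IREB2 and ACO1, the lines had opposite signs, as did 35.8% of all genes. SLC11A2 alone was above 0 in both lines, a direction that one scaling turned in HCT116, where 27.2% of all genes were above 0 in both.

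**Figure D3:**
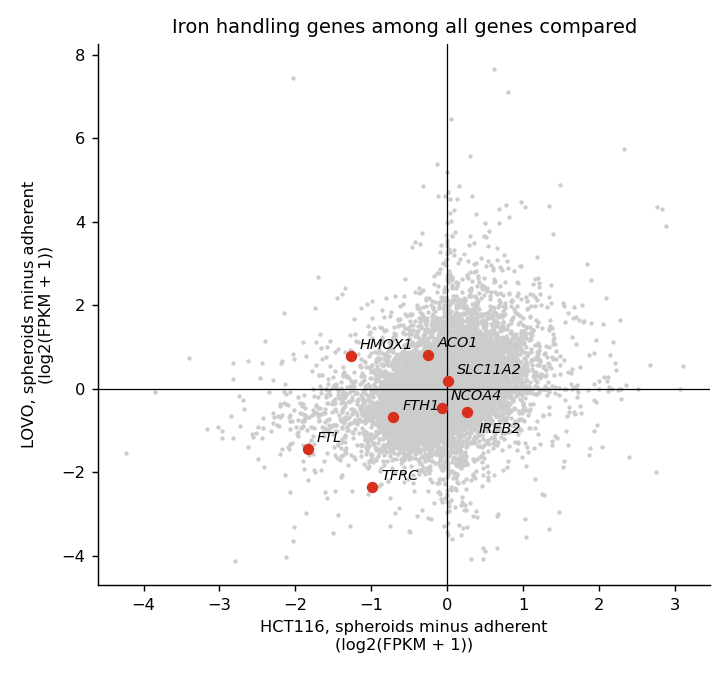
Difference of log2(FPKM + 1) between spheroids and adherent cells in HCT116 (x axis) and LOVO (y axis). Each grey point is 1 of the 14429 genes compared and red points are the 8 iron handling genes, with FTL at -1.84 and -1.45 and TFRC at -0.99 and -2.36 in the lower left and HMOX1 at -1.27 and 0.79 in the upper left.

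Between the lines, 5 of the 8 genes (FTH1, TFRC, SLC11A2, IREB2 and ACO1) were higher in the library labelled LOVO in both growth forms, where 41.7% of all genes were. In adherent cells HMOX1, IREB2 and TFRC were past a log2 difference of 1, as were 33.8% of genes, 17.4% above 1 and 16.4% below -1. The values were -2.33 for HMOX1, 1.37 for IREB2 and 1.81 for TFRC, and with TPM or a smaller pseudocount 5 genes were past it, 4 of them above 1. In spheroids ACO1, FTH1 and SLC11A2 were past it, with 1.38, 1.02 and 1.15, against 32.7% of genes, 17.7% above 1 and 15% below -1. Centred on the median of all genes, FTH1 had 0.99 and 2 genes were past it. FTL had -0.49 in adherent cells and -0.11 in spheroids, where TPM gave 0.13. NCOA4 had 0.17 in adherent cells and -0.21 in spheroids, where TPM gave 0.02. These comparisons share libraries with those between growth forms.

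When the 4 levels of each gene were put in order, neighbours had a counting interval that included 0 only for SLC11A2 between the HCT116 libraries and for SLC40A1 within each line. The variation between cultures of 1 condition was not measured, so the order of the other neighbours is that of these libraries.

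The genes with the most similar pattern were sought among 7663 protein-coding genes with a mean FPKM no lower than 5, by the distance over 4 libraries of log2(FPKM + 1) centred on each gene's mean. Nearest to FTL were CDCA2, a phosphatase regulator in mitosis, at a distance of 0.30, the translation factor subunit EIF3C at 0.33 and the quinone reductase NQO1 at 0.36. NQO1 had an FPKM of 163 in HCT116 grown adherent, 58.9 as HCT116 spheroids, 162 in adherent cells labelled LOVO and 50.5 in their spheroids. Nearest to TFRC were the neutral amino acid transporter SLC1A4 at 0.29, the threonyl-tRNA synthetase gene TARS at 0.32 and the glycyl-tRNA synthetase gene GARS at 0.38. TARS had an FPKM of 60.1, 32.1, 209 and 52.9 in the same order of libraries. Nearest to FTH1 were the DNA repair nuclease DCLRE1A and CENPV, both at a distance of 0.08 to 0.09, and the phosphoribosyl pyrophosphate synthetase PRPS2 at 0.09. Nearest to HMOX1 were NOCT at 0.29, the actin-binding TWF2 at 0.35 and the Mediator subunit MED30 at 0.38. NOCT had an FPKM of 19.9 and 6.47 in HCT116 and of 3.41 and 7.11 in LOVO. Each distance rests on 4 libraries.

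The other genes of iron and haem handling were read from lists. A list of the regulator NRF2 and its targets outside iron handling was read with them, in all 100 genes in the table outside the 9. The lists were drawn up with earlier results on these libraries known. Among 12 genes of iron uptake and reduction with a mean FPKM no lower than 1, none was above a log2 difference of 1 in HCT116 spheroids and SLC39A14 was below -1, while in LOVO 2 were above 1 and 1, again SLC39A14, below -1. Over all genes compared, 2.19% were above 1 and 3.33% below -1 in HCT116, and 8.57% and 7.85% in LOVO. SLC39A14, or ZIP14, which imports iron not bound to transferrin, had an FPKM of 48.3 in HCT116 grown adherent, 22.2 as HCT116 spheroids, 44.0 in adherent cells labelled LOVO and 18.5 in their spheroids. Its differences were -1.09 and -1.21, and its spheroid libraries lay below its adherent ones. The related metal importer SLC39A8, or ZIP8, had an FPKM of 3.76 and 6.26 in HCT116 and of 12.6 and 100.4 in LOVO, with differences of 0.61 and 2.90. STEAP1, of a family of metal reductases, had 345 and 129 reads in HCT116. In the libraries labelled LOVO it had 0 reads in adherent cells and 43 in spheroids. Against a floor of 3 reads in the adherent library, the LOVO spheroids were 12.8-fold higher. The counting interval of the log2 ratio, from the reads themselves, had a lower end of 3.31. The endosomal reductase STEAP3 had differences of 0.10 and 0.16, the duodenal ferric reductase CYBRD1 had 0.38 and 0.13, and TFR2, the second transferrin receptor, had -0.01 and 0.14. TFR2 was low, with an FPKM of 1.43 to 3.40.

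Of the chaperones and storage partners of iron, 5 of 5 genes compared were lower in LOVO spheroids, with a median difference of -0.72, and 4 of 5 were lower in HCT116 spheroids, with a median of -0.18. Over all genes compared, 53.4% were lower in HCT116 spheroids and 53.5% in LOVO spheroids, the shares against which this and the next lists are read. The median difference of all genes compared was -0.03 in HCT116 and -0.06 in LOVO. Over those with a mean FPKM no lower than 5 it was -0.12 and -0.21. PCBP1 and PCBP2, which deliver iron to ferritin, had differences of -0.18 and -0.43 in HCT116 and of -0.72 and -0.87 in LOVO. GLRX3, a glutaredoxin that carries iron-sulfur clusters, had -0.77 and -1.01. FTMT, the mitochondrial ferritin, had 0 reads in every library. Of 5 genes of iron and haem export compared, 3 were higher and 2 lower in the spheroids of each line, with medians of 0.03 and 0.18. The 3 higher genes were not the same in the lines. The HCT116 median is the value of CP, which passed the filter only through the libraries labelled LOVO. In HCT116 the counting interval of the log2 ratio of CP ran from -1.11 to 2.76, so its direction there is not known. The ferroxidase genes HEPH and HEPHL1 were under the mean FPKM of 1 and not among the 5, and are named after their values were seen. HEPH had 61 reads in HCT116 grown adherent and 245 as spheroids, a level 4.87 times as high, and 0 in both libraries labelled LOVO. HEPHL1 had 14 and 123 reads in HCT116, a level 10.7 times as high in the spheroids, and 9 and 10 in LOVO. Their log2 ratios in HCT116 had counting intervals from 1.87 to 2.71 and from 2.61 to 4.33. CP, the ferroxidase ceruloplasmin, had 5 and 7 reads in HCT116 and an FPKM of 2.49 and 13.2 in LOVO, with differences of 0.03 and 2.03. The haem exporter FLVCR1 had -0.14 in HCT116 and 0.73 in LOVO, while FLVCR2 had an FPKM of 0.829 and 0.642 in HCT116 and of 2.61 and 0.253 in LOVO, with differences of -0.16 and -1.53.

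Of 8 genes of iron sensing and hepcidin control compared, 6 were higher in HCT116 spheroids and 3 in LOVO spheroids, with medians of 0.06 and -0.10. FBXL5, the ubiquitin ligase subunit that marks IRP2 for degradation, had 0.21 in HCT116 and -0.08 in LOVO. HIF1A, the hypoxia-inducible factor subunit, had an FPKM of 25.1 and 32.2 in HCT116 and of 100.1 and 269 in LOVO, with differences of 0.35 and 1.42. EPAS1, whose mRNA is known to carry an iron-responsive element, had 0.03 and -0.13.

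Of 12 haem synthesis genes compared, 10 were lower in HCT116 spheroids and 8 in LOVO spheroids, with medians of -0.28 and -0.21. The summed FPKM of all 14 genes of the list was 321 and 329 in HCT116 and 492 and 383 in LOVO. CPOX, the coproporphyrinogen oxidase, was among those that were higher in HCT116 spheroids, with an FPKM of 97.5 and 153 in HCT116 and of 8.56 and 8.90 in LOVO and differences of 0.65 and 0.05, and is named after its values were seen. FECH, ferrochelatase, which inserts iron into the haem ring, had an FPKM of 11.2 and 6.73 in HCT116 and of 12.7 and 4.19 in LOVO, with differences of -0.66 and -1.40. ALAS1, the rate-limiting synthase, had -0.35 in HCT116 and 0.02 in LOVO. In haem breakdown, 4 of 5 genes were lower in HCT116 spheroids and 2 of 5 in LOVO spheroids, with medians of -0.28 and 0.04. The constitutive oxygenase HMOX2 had -0.43 and -0.26, both of 1 sign, unlike HMOX1. The biliverdin reductase BLVRB had -0.83 and -0.61 and BLVRA had -0.28 and 0.19.

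Mitochondrial iron import and iron-sulfur cluster assembly was lower in HCT116 spheroids in 19 of 22 genes compared, with a median of -0.26. None was past 1 there, where 5.52% of all genes compared were. In LOVO spheroids 16 of 22 were lower, with a median of -0.48, and 4 were below -1, where 7.85% of all genes compared were. The 4 were HSPA9, the chaperone of cluster assembly, with -1.25, and the cluster carriers BOLA3, NFU1 and ISCA1, with -1.14, -1.04 and -1.05. In HCT116 the same genes had -0.76, -0.83, -0.17 and -0.34.

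NRF2, the product of NFE2L2, and its repressor KEAP1 are known to control ferritin and HMOX1 transcription together with the repressor BACH1. NFE2L2 had an FPKM of 18.8 and 11.8 in HCT116 and of 49.6 and 19.2 in LOVO, with differences of -0.63 and -1.32. KEAP1 had -0.31 and -0.53, and BACH1 had 0.08 and 0.66. Of these 3 genes and 15 NRF2 targets outside iron handling, 14 of 18 were lower in the spheroids of each line, with medians of -0.60 and -0.48. In both lines NQO1 (-1.46 and -1.66), the thioredoxin reductase TXNRD1 (-1.75 and -1.94) and the cystine transporter SLC7A11 (-2.13 and -2.06) were below -1, as were 0.88% of all genes. SRXN1 and OSGIN1 were lower by more in HCT116, with -1.91 and -1.90, than in LOVO, with -0.42 and -0.37, and GCLC and TKT had -0.75 and -0.58 in HCT116 against -1.33 and -1.35 in LOVO. ME1, AKR1B10 and AKR1C1 were above 2 in LOVO, as were 1.81% of all genes, with 2.12, 3.09 and 2.75, and had 0.01, -0.02 and 0.03 in HCT116. AKR1B10 and AKR1C1 passed the filter only through the libraries labelled LOVO. In HCT116 their FPKM was at most 0.703 and 0.258. The counting intervals of their log2 ratios there ran from -0.97 to 0.86 and from -0.51 to 0.84. AKR1B10 was counted among the lower genes in HCT116. Promoters of 7 of the 9 genes were found in RefSeq (GRCh38.p14, a short window around the start). Of these 1, that of NCOA4, held the antioxidant response core TGACNNNGC on either strand, as did 13.3% of 35116 promoters. Sites outside that window were not searched, so the scan cannot show whether the other genes hold the core farther away.

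**Figure D4:**
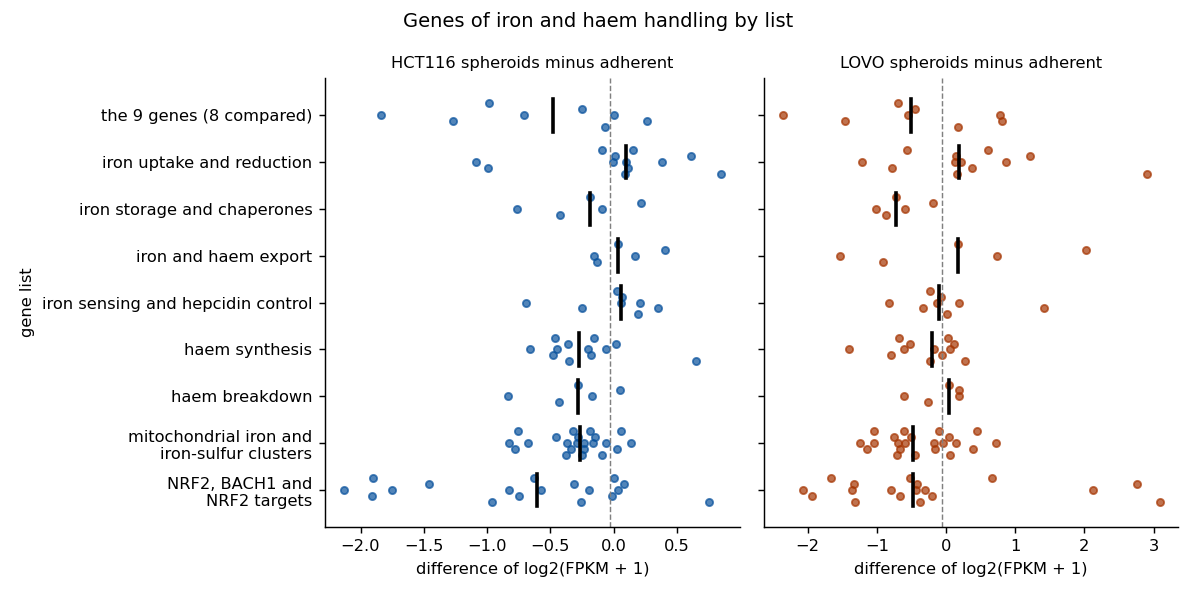
Difference of log2(FPKM + 1) between spheroids and adherent cells in HCT116 (left) and LOVO (right), for each gene with a mean FPKM no lower than 1. Shown are the 9 genes and 8 lists, of iron and haem handling genes and of NRF2 and BACH1 with NRF2 targets outside iron handling. Points are genes, black bars the list medians and the dashed line the median of all genes compared. Over genes with a mean FPKM no lower than 5 that median was -0.12 in HCT116 and -0.21 in LOVO. The x axes have different scales. The list of mitochondrial iron import and iron-sulfur clusters lies mostly left of the dashed line in both lines, with medians of -0.26 and -0.48.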

How the data were processed

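RNA was extracted with a column kit and libraries were made with the SMARTER mRNA-Seq kit, per the labels. The authors deposited 1 FPKM value for each gene in each library, beside the length of the gene. Whether the counting used strand, the aligner and the counter are not given in the sources used here. The submitters' processing notes name the mouse builds GRCm38 and mm10, but all 58735 gene identifiers are human and match GENCODE 29 (GRCh38) in start and end, so that annotation was used. Multiplied by gene length, 100% of the deposited FPKM above 0 were whole multiples of 1 step per library (within 0.001 reads), which gave the reads. The library sizes behind the FPKM were 0.907 to 1.09 times the reads on genes.

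Differences were taken on log2(FPKM + 1) for 14429 genes whose FPKM averaged 1 or more, a filter that used all 4 libraries. Log2 ratios of reads carry exact (Clopper-Pearson) 95% counting intervals. The floor was 3 reads, or an FPKM of 0.147 to 0.179 for a gene with a length of 1 kb and less for a longer gene. With 1 library per condition no test was run, and no p-value is given. Neither line had a second library of a condition, and the authors' edgeR step was not repeated. The genes and lists were chosen with earlier results of these data known. The 9 genes were always named, as were 18 listed genes, together with every list gene with that mean FPKM past a log2 difference of 1 between growth forms in either line. Alternatives were pseudocounts of 0.1 and 0.01, TPM, scaling in the style of TMM, median centring, keeping all genes, a minimum mean FPKM of 5, protein-coding genes only, adding pseudogene reads and, chosen after seeing the data, another length of FTH1. A further gene list is not reported here. The steps were tested on simulated data. Python 3.11.15, numpy 2.4.6, pandas 2.3.3, scipy 1.17.1 and matplotlib 3.10.9 were used.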

Additional observations from a re-analysis of the deposited data

Results flagged for a closer look

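For 11 named genes the difference between spheroids and adherent cells had opposite signs in HCT116 and LOVO. Each line had 1 library per growth form, so the difference between the lines was not tested. On the log2(FPKM + 1) scale, LOVO minus HCT116, it was 2.06 for HMOX1 (-1.27 in HCT116 and 0.79 in LOVO), 1.07 for ACO1 (-0.25 and 0.82) and -0.81 for IREB2 (0.26 and -0.55). Among the other genes of iron handling it was 2.21 for STEAP1, which had 0 reads in adherent cells labelled LOVO, so that this value depends on the pseudocount. It was 0.87 for FLVCR1, 0.48 for BLVRA, 0.37 for ALAS1, -0.29 for FBXL5, -0.15 for EPAS1 and 0.14 for TFR2. The NRF2 target AKR1B10 had 3.10, with -0.02 in HCT116, where it had 25 and 20 reads, and 3.09 in LOVO. In 6 of the 11 the counting interval of the log2 ratio included 0 in at least 1 line. These were TFR2 in both lines, FLVCR1, EPAS1 and AKR1B10 in HCT116 (-0.35 to 0.02, -0.06 to 0.11 and -0.97 to 0.86) and FBXL5 and ALAS1 in LOVO (-0.18 to 0.01 and -0.07 to 0.11). In 4 of the 11 another scaling gave both lines the same sign: TFR2 with TPM and with centring on the median, FBXL5 with TPM, EPAS1 with TPM and with TMM-style scaling, and AKR1B10 with centring on the median. HMOX1, ACO1 and IREB2 had opposite signs under each of the 5 pseudocounts and scalings. Of all genes compared, 35.8% had opposite signs in the lines. The cadherin CDH1 was at an FPKM of 0.117 and 0.00805 in the libraries labelled LOVO, and its part in these differences was not tested.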

How the results depend on the processing

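No paired analysis was run. Each condition had 1 library, so that no comparison holds more than 1 pair with a shared replicate number. A fit over both lines with the line as a term, which would pair the growth forms by line, was not run. Of 32 counts of genes past a log2 difference of 1 under the alternatives, 28 were within 1.5 times the reported count. In LOVO spheroids, 4 genes were past it with TPM in place of 2 (2 above and 2 below, where 22.4% of genes were past it). Between adherent cells labelled LOVO and HCT116, 5 genes were past it in place of 3 with a pseudocount of 0.1, with a pseudocount of 0.01 and with TPM (4 above and 1 below), where 42.7%, 43.6% and 40.7% of genes were. In HCT116 spheroids, 3 were past it, TFRC included, with either smaller pseudocount and with TMM-style scaling. Between the spheroids of the lines, 2 were past it in place of 3 after centring on the median (FTH1 0.99). TPM moved the median difference of all genes by 0.15 in LOVO spheroids against adherent cells and by 0.22 between the spheroids of the lines. Among 36 differences of the 9 genes, the sign changed in 3 under any of 5 pseudocounts and scalings: FTL and NCOA4 between spheroids of the lines, with TPM (0.13 and 0.02), and SLC11A2 in HCT116, with TMM-style scaling (-0.02). In LOVO spheroids TFRC ran from -2.40 to -2.18 and FTL from -1.46 to -1.25, and in HCT116 from -1.02 to -0.96 and from -1.87 to -1.80. Adding pseudogene reads moved none of 8 ferritin differences beyond counting error.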
